A study of Mus musculus with 7 samples.

Results

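The 9 genes described here encode proteins of the tight and adherens junctions of epithelia, and were chosen by symbol: the claudins Cldn1, Cldn2, Cldn10 and Cldn19, the junction proteins Tjp1, Ocln and Cgn, and the cadherins Cdh1 and Cdh3. All 9 were measured, out of 19938 genes on the arrays. RNA came from the retinal pigment epithelium (RPE), a sheet of pigmented cells behind the photoreceptors, of C57Bl/6J mice, either wild type (WT, 4 samples) or mutant for the Mfrp rd6 allele (3 samples), with 1 array for each sample. Mfrp encodes a membrane protein of the RPE, and rd6 is an inherited mutation carried by every cell, which leads to retinal degeneration. The arrays read Mfrp through a probe set shared with its neighbour C1qtnf5, which does not check the genotype labels. The age field gives 8 weeks for WT and 12 weeks for Mfrp rd6, and by it genotype and age cannot be told apart, whereas the growth protocol gives 12 weeks for Mfrp rd6 replicate 1 alone. Whether each replicate is its own animal is not stated, and p-values therefore reflect the spread among these 7 samples, part of which may be technical.

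The RPE forms the outer blood-retinal barrier, and its tight junctions close the path between neighbouring cells. Claudins are the transmembrane proteins that decide whether this path is sealed or lets selected ions through, occludin (Ocln) lies beside them, and ZO-1 (Tjp1) and cingulin (Cgn) connect them to the actin cytoskeleton. Cadherins hold the cells together at the adherens junction just below, through catenins on the inner side of the membrane. P-cadherin (Cdh3) is known as a main cadherin of the RPE, and human mutations of CDH3 and CLDN19 affect the retina.

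1 of the 9 genes changed in the Mfrp rd6 samples: Cldn10, a claudin with isoforms that form ion-selective channels between cells, fell 1.69-fold. Values are log2 intensities, so a difference of 1 is a doubling, and a gene was called changed at an adjusted p under 0.05 (limma, Benjamini-Hochberg over all 19938 genes). By this rule 0.813% of all genes fell and 1.34% rose. Of the 9 genes 0 rose, also at an unadjusted p under 0.05, and 4 were lower at that unadjusted level, where 9.37% of all genes were lower and 5.98% higher. The differences (Mfrp rd6 minus WT) were negative for 8 of the 9 genes, against 56.5% of all genes, with a median of -0.21 against -0.02 for all genes. In 4 genes, Cldn10, Tjp1, Ocln and Cgn, every Mfrp rd6 array lay below every WT array, as in 9.82% of all genes. In such bulk samples fewer cells of a type and less RNA per cell cannot be told apart.

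**Figure D1:**
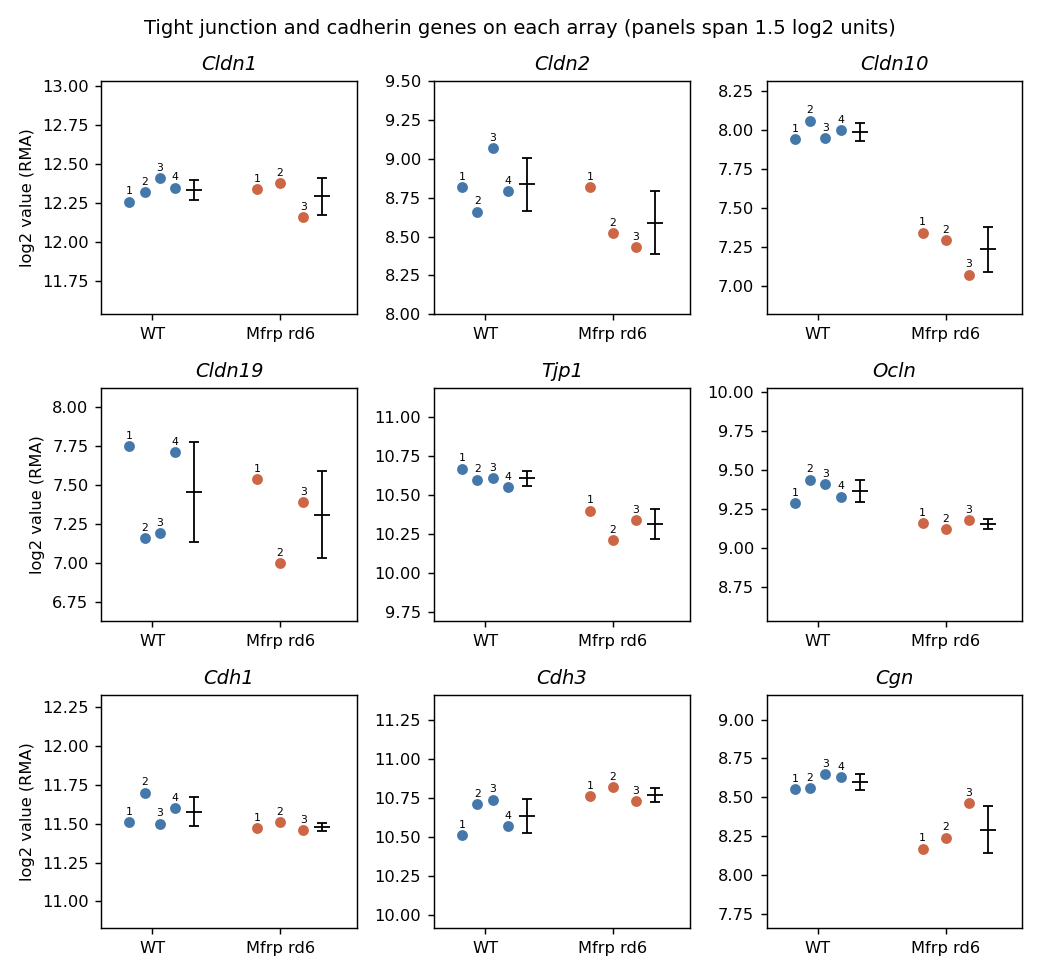
Log2 values of the 9 genes on each array (points, numbered by replicate; WT blue, n = 4; Mfrp rd6 orange, n = 3) with the mean and SD of each group in black; each panel spans the same range of log2 units. The groups stand apart for Cldn10, Tjp1, Ocln and Cgn and overlap for the other genes.

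The values came from a pellet that held other cells besides the RPE. Defining RPE transcripts were high, with Rpe65, the visual cycle isomerase, at 12.81 to 12.92 in WT and 12.48 to 12.80 in Mfrp rd6, while the RPE channel Best1 read only 5.75 to 6.02 in WT and 5.73 to 5.95 in Mfrp rd6. Of the 15 RPE markers 0 rose and 1, Lrat, fell, against 1.34% and 0.813% of all genes (0 fell in each of the fits without 1 array other than that without WT replicate 1). At an unadjusted p under 0.05 (limma) 2 were lower (Rpe65 and Lrat) and 1 higher (Pmel), against 9.37% and 5.98% of all genes. In 3, Rpe65 among them, every mutant array lay below every WT array, as in 9.82% of all genes. The array means of the RPE list were 11.29 to 11.42 in WT and 11.23 to 11.33 in Mfrp rd6. Transcripts of surface epithelium, which makes E-cadherin and several claudins too, were also high, with Krt5, a basal keratin, at 13.09 to 13.16 in WT and 13.14 to 13.15 in Mfrp rd6. Of the 21 surface epithelium markers 0 passed the test (9 lower and 0 higher at an unadjusted p under 0.05, limma, against 9.37% and 5.98% of all genes). A negative difference was seen in 19 of them, against 56.5% of all genes. In 9 every mutant array lay below every WT array, as in 9.82% of all genes. The array means of the 21 markers were 10.91 to 10.98 in WT and 10.71 to 10.76 in Mfrp rd6. Of 16 microglia and macrophage markers 12 rose and 0 fell, against 1.34% and 0.813% of all genes. Their median was 1.31, with array means of 7.04 to 7.13 in WT and 8.46 to 9.02 in Mfrp rd6. All 12 rod markers had a negative difference, against 56.5% of all genes, with a median of -0.54. Their array means overlapped, at 6.91 to 8.10 in WT and 6.71 to 7.06 in Mfrp rd6. Of the 12, 0 passed (3 lower and 0 higher at an unadjusted p under 0.05, limma, against 9.37% and 5.98% of all genes). The highest rod mean was that of WT replicate 3. Without that array 10 of the 12 differences were negative, against 52.4% of all genes, with a median of -0.32. The part of these cells in the values of the 9 genes was not tested.

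Cldn10 was chosen for its sequence context because it was the gene that passed the test. The RefSeq table of GRCm38.p6 gives it 2 start sites on the + strand of chromosome 14, 67079 bases apart, from which isoforms with different first exons start. The 250 bases before each are shown so that the starts can be compared, from chr14:118787621-118787870 for the upstream start and chr14:118854700-118854949 for the downstream start. The first holds 36.0% G and C, the second 72.4%. Neither holds any of the 4 motifs that were searched in the promoters and are named with those of Cgn, so no letter is in capitals.
Cldn10, upstream start: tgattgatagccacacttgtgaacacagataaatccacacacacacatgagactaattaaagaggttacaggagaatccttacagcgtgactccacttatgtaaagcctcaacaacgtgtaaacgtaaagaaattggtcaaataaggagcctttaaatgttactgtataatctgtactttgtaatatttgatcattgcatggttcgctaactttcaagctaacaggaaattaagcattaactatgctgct
Cldn10, downstream start: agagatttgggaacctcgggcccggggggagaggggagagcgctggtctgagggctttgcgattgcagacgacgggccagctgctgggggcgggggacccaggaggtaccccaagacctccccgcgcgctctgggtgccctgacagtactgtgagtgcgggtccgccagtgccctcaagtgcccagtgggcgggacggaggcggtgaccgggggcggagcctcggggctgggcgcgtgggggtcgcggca

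Cldn10 read 7.94, 8.06, 7.95 and 8.00 on the WT arrays (replicates 1 to 4) and 7.34, 7.29 and 7.07 on the Mfrp rd6 arrays (replicates 1 to 3). All 3 mutant arrays lay below all 4 WT arrays, and the WT arrays lay close together. The WT mean was 7.99 ± 0.055 (SD, n = 4) and the Mfrp rd6 mean 7.23 ± 0.14 (SD, n = 3), with a log2 change of -0.75 (SE 0.08, 95% confidence interval -0.94 to -0.57, limma adjusted p = 0.00138). By size it was number 31 of the 162 genes that fell. It passed in all 7 fits that each left out 1 array, with changes of -0.81 to -0.67 and adjusted p of 0.00417 to 0.00668. Leaving out Mfrp rd6 replicate 1, so that all samples have the same age by the growth protocol, gave -0.81 (adjusted p = 0.00422).

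Both probe sets that are annotated to Cldn10 alone fell. The second, 10422312, read 7.74, 7.84, 7.57 and 7.76 in WT and 7.17, 7.13 and 6.89 in Mfrp rd6. Its change was -0.66 (SE 0.09), with an adjusted p of 0.00792 in a limma fit over all 21789 probe sets with 1 symbol. The annotation ties both probe sets to the same 10 transcript accessions, so the arrays do not show which start site the change came from. Another probe set, annotated to both Cldn10 and its neighbour Dzip1, a ciliary protein gene, was lower by 0.30, at 8.53 ± 0.075 (SD, n = 4) in WT and 8.23 ± 0.042 (SD, n = 3) in Mfrp rd6.

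**Figure D2:**
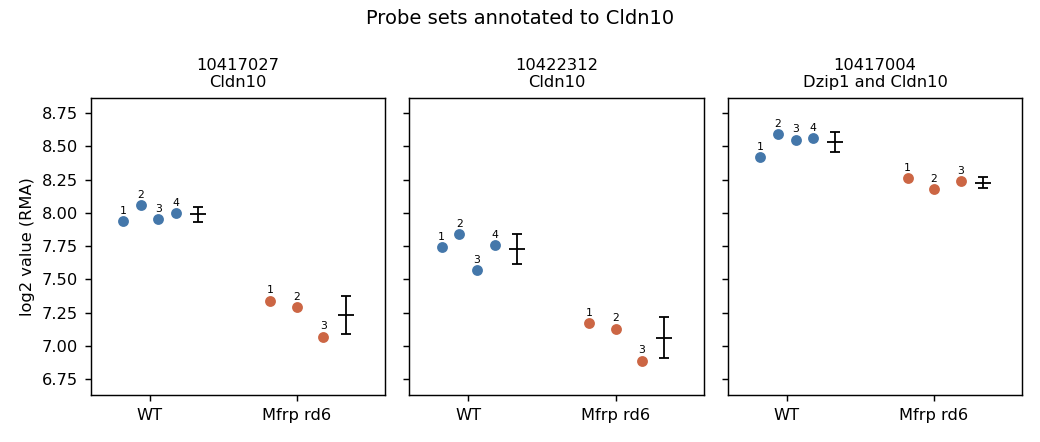
Log2 values of the 3 probe sets annotated to Cldn10 on each array (points, numbered by replicate; WT blue, n = 4; Mfrp rd6 orange, n = 3) with the mean and SD in black. In each of them the Mfrp rd6 arrays lie below the WT arrays, with differences of -0.75, -0.66 and -0.30.

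With the surface epithelium mean as a covariate, which itself separates the groups, Cldn10 differed by -0.78 with a larger SE of 0.34 (adjusted p = 1), and in that fit 0 of 19938 genes passed (533 at an unadjusted p under 0.05, limma). All 15 skeletal muscle markers had a positive difference, with a median of 1.15. Of these, 14 were higher and 0 lower at an unadjusted p under 0.05 (limma), against 5.98% and 9.37% of all genes. By the adjusted rule 3 rose (Myh4, Atp2a1 and Pvalb) and 0 fell. That count was 11 without WT replicate 3, 6 without Mfrp rd6 replicate 3, and 0 without any one of the other 5 arrays. The muscle markers had array means of 6.81 to 7.98 in WT and 8.03 to 8.87 in Mfrp rd6. With their mean as a covariate Cldn10 differed by -0.84 (SE 0.15, adjusted p = 0.127), and 40 genes changed. The 3 genes whose values followed Cldn10 most closely over the 7 arrays, among 13405 genes with a mean of at least 6, were Igf2r (Pearson r = 0.992), Uvrag (r = 0.989) and Bcl10 (r = 0.989). These correlations describe 7 arrays that include the group difference and carry no test. Bcl10, a signalling adaptor, fell by 0.46 (adjusted p = 0.00556), whereas Igf2r, a sorting receptor for lysosomal enzymes, differed by -0.28 (adjusted p = 0.0658) and Uvrag, an autophagy protein, by only -0.07 (adjusted p = 0.647).

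None of the other 3 claudins passed the test. Cldn1, a sealing claudin that surface epithelium also makes, read 12.26, 12.32, 12.41 and 12.35 in WT and 12.34, 12.38 and 12.16 in Mfrp rd6. The groups overlapped, and the difference of -0.04 had a 95% interval of -0.22 to 0.13 (adjusted p = 0.862). Cldn2, which forms cation and water pores, read 8.82, 8.66, 9.07 and 8.79 in WT and 8.82, 8.52 and 8.43 in Mfrp rd6. Mfrp rd6 replicate 1 matched WT replicate 1 while the other two mutant arrays lay below all WT arrays, and the difference of -0.25 (interval -0.51 to 0.02) gave an adjusted p of 0.369. Without Mfrp rd6 replicate 1 it was -0.36 with adjusted p = 0.221.

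Cldn19, a claudin of the RPE, kidney and Schwann cells, varied more within the groups than between them. It read 7.75, 7.16, 7.19 and 7.71 in WT and 7.54, 7.0 and 7.39 in Mfrp rd6, with an SD of 0.32 (n = 4) in WT, the widest of the 9 genes. WT replicates 1 and 4 and Mfrp rd6 replicates 1 and 3 were high, and the difference of -0.14 (interval -0.54 to 0.26) did not pass (adjusted p = 0.781). The same 4 arrays were high for Zic1 and Zic2, transcription factors that were taken as markers of ciliary and iris epithelium. Zic1 read 8.46, 7.63, 7.65 and 8.63 in WT and 8.35, 7.64 and 8.14 in Mfrp rd6, and Zic2 read 8.97, 8.21, 8.06 and 9.15, then 9.26, 8.53 and 9.07. Nectin3, an adhesion protein picked after its values were seen, was also highest on WT replicates 1 and 4 within WT (8.44, 7.80, 7.87 and 8.36) and on replicates 1 and 3 within Mfrp rd6 (8.48, 8.21 and 8.26). Zic1 and Zic2 were picked from 9 ciliary and iris markers after their values were seen. Of the others, Wfdc1 and Mab21l2 were also higher on these 4 arrays within their groups. Wfdc1 read 7.47, 7.27, 7.23 and 7.75 in WT and 7.60, 7.53 and 7.64 in Mfrp rd6. Mab21l2 read 9.12, 8.76, 8.77 and 9.15, then 9.43, 8.74 and 9.41. The rest followed another order. Cryab, Opcml and Bmp4 were lowest within WT on replicate 1 (10.73, 5.92 and 12.0), with all Bmp4 values in WT at 12.0 to 12.06. Tgfbr3 was highest within WT on replicate 3 (10.25), and Msx1 was highest on Mfrp rd6 replicate 2 in that group (6.59). The array means of all 9 measured ciliary and iris markers were 8.53 to 8.94 in WT and 8.66 to 8.89 in Mfrp rd6, with 0 members changed. At an unadjusted p under 0.05 (limma) 1, Bmp4, was lower and 0 were higher, against 9.37% and 5.98% of all genes. The part of ciliary and iris cells in the Cldn19 values was not tested.

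**Figure D3:**
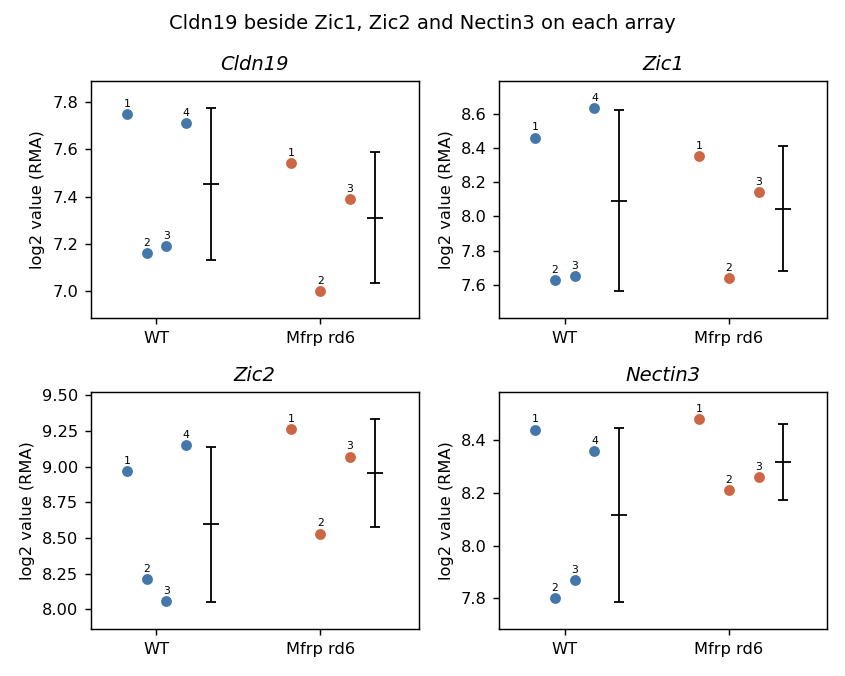
Log2 values of Cldn19, Zic1, Zic2 and Nectin3 on each array (points, numbered by replicate; WT blue, n = 4; Mfrp rd6 orange, n = 3) with the mean and SD in black. WT replicates 1 and 4 lie above replicates 2 and 3 in each panel, and Mfrp rd6 replicate 2 is the lowest of its group in each.

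The junction plaque genes were lower in Mfrp rd6 on every array and missed the threshold. Tjp1, the scaffold ZO-1, read 10.67, 10.60, 10.61 and 10.55 in WT and 10.40, 10.21 and 10.34 in Mfrp rd6. All mutant arrays were below all WT arrays, with a difference of -0.29 (SE 0.07, interval -0.45 to -0.13, limma adjusted p = 0.0813). Tjp1 passed when genes with a mean under 6 (adjusted p = 0.0486) or genes below the median level (adjusted p = 0.0338) were left out of the test, and at adjusted p = 0.0186 with robust moderation along a variance trend, but in 0 of the 7 fits without 1 array. Cgn, cingulin, read 8.55, 8.56, 8.65 and 8.63 in WT and 8.17, 8.24 and 8.46 in Mfrp rd6. Again no array overlapped, and Mfrp rd6 replicate 3 lay nearest to WT. The Cgn difference was -0.31 (SE 0.08, interval -0.49 to -0.12, adjusted p = 0.108), and it passed when Mfrp rd6 replicate 3 was left out (-0.39, adjusted p = 0.0459), when arrays were weighted (-0.35, adjusted p = 0.0344) and when genes below the median level were dropped (adjusted p = 0.0499). Under quantile normalization or cyclic loess the Cgn arrays overlapped.

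Ocln, occludin, read 9.29, 9.44, 9.41 and 9.33 in WT and 9.16, 9.12 and 9.18 in Mfrp rd6. The mutant arrays lay close together and below all WT arrays, with a difference of -0.21 (SE 0.07, interval -0.37 to -0.06). It did not pass (adjusted p = 0.166), nor in any of the 19 alternatives, where the lowest adjusted p was 0.0671.

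The promoter table held 7 of the 9 genes, without Cdh1 and Cdh3. The 250 bases before each start were searched on both strands for CACGTG (the E-box that MITF, a transcription factor of pigment cells, binds), CACCTG (the E-box of the SNAI and ZEB repressors), TAATCC (the core bound by OTX factors) and AACCNGTT (the core bound by GRHL factors of epithelia). Among all 32851 promoter windows of this length 6.0%, 17.2%, 6.3% and 1.8% held them, in this order. Cgn held CACGTG once, 185 bases before its start, and AACCNGTT once on the opposite strand, 29 bases before it. One start of Ocln held CACCTG in 2 places, and the other starts held none of the motifs. The Cgn window (chr3:94786483-94786732, - strand, GRCm38.p6) is shown because it held both an MITF-type and a GRHL-type match, in capitals. A match is a description of the letters and does not show that a factor binds.
Cgn, before the start: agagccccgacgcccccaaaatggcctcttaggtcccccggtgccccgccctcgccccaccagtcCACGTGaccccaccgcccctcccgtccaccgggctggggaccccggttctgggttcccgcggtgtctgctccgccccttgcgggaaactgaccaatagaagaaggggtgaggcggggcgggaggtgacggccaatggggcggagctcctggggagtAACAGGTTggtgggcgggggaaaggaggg

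The cadherins did not pass the test. Cdh1, E-cadherin, which surface epithelium makes in quantity, read 11.51, 11.70, 11.50 and 11.60 in WT and 11.47, 11.51 and 11.46 in Mfrp rd6. The groups met at their edges, and the difference was -0.10 (interval -0.26 to 0.07, adjusted p = 0.592). Cdh3, P-cadherin, was the one gene of the 9 with a positive difference, at 10.51, 10.71, 10.74 and 10.57 in WT and 10.76, 10.82 and 10.73 in Mfrp rd6. Mfrp rd6 replicate 3 lay between WT replicates 2 and 3, and the difference of 0.14 (interval -0.04 to 0.31) gave an adjusted p of 0.454. Cdh1 and Cdh3 are neighbours on chromosome 8, with 0 protein-coding genes between them in the RefSeq table. With the surface epithelium mean as a covariate the sign of Cdh1 turned to 0.27 (adjusted p = 1), and that of Cdh3 turned to -0.04 with the skeletal muscle mean (adjusted p = 0.981).

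**Figure D4:**
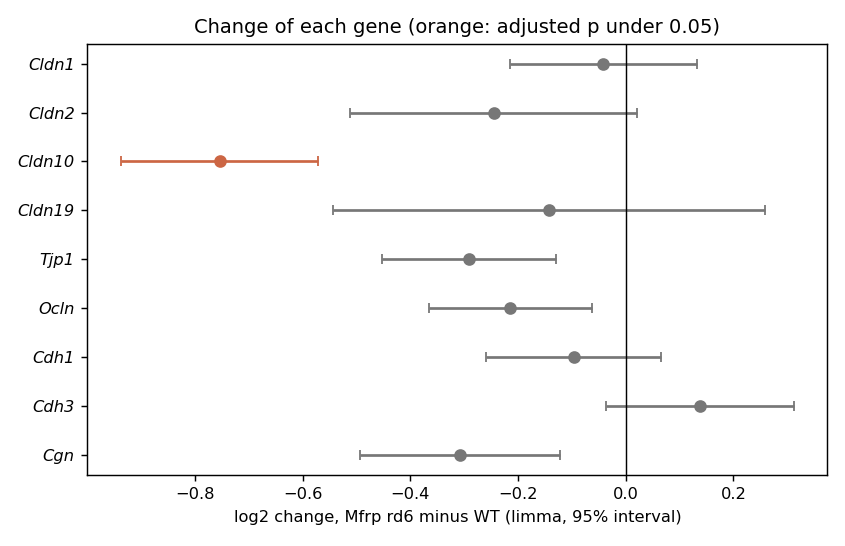
Log2 change of each of the 9 genes, Mfrp rd6 minus WT (points), with the 95% confidence interval from limma (bars); orange marks an adjusted p under 0.05. The intervals of Cldn10, Tjp1, Ocln and Cgn lie below 0, and that of Cldn10 alone belongs to a gene past the threshold.

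Among 19 other claudins 0 rose and 1 fell, with a median difference of -0.01 (all genes -0.02). In this list 2 were lower and 1 higher at an unadjusted p under 0.05 (limma), against 9.37% and 5.98% of all genes. Cldn17, at 6.14 ± 0.095 (SD, n = 4) in WT and 5.67 ± 0.075 (SD, n = 3) in Mfrp rd6, fell by 0.46 (adjusted p = 0.0151), near the dim end of the scale, where the method compresses changes. Leaving out Mfrp rd6 replicate 1 ended the call (-0.43, adjusted p = 0.0713). Cldn5, the claudin of blood vessels, was at 7.02, 6.89, 7.06 and 7.12 in WT and 7.27, 7.19 and 7.59 in Mfrp rd6, a difference of 0.33 (adjusted p = 0.168). Endothelial markers were higher on the same arrays, with a positive difference for all 14 measured and a median of 0.39. At an unadjusted p under 0.05 (limma) 10 were higher and 0 lower, against 5.98% and 9.37% of all genes. By the adjusted rule 3 rose (Tek, Plvap and Cd34) and 0 fell. That count was 0 without WT replicate 2 or any one Mfrp rd6 array, and 1 without WT replicate 1 or 3. The array means of the 14 markers were 6.84 to 7.22 in WT and 7.32 to 7.64 in Mfrp rd6. The part of endothelial cells in the Cldn5 values was not tested.

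Among 20 other tight junction proteins 0 rose and 1 fell (6 lower and 1 higher at an unadjusted p under 0.05, limma, against 9.37% and 5.98% of all genes), with a median of -0.11. The gene that fell was Cgnl1, paracingulin, the close relative of cingulin. It read 9.01, 9.05, 8.95 and 8.91 in WT and 8.58, 8.43 and 8.56 in Mfrp rd6, with no overlap between the groups. Its change was -0.46 (SE 0.07, adjusted p = 0.0119), and leaving out Mfrp rd6 replicate 2 ended the call (-0.41, adjusted p = 0.055). Amotl1, an angiomotin of the junction, differed by -0.29 (adjusted p = 0.0759).

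Of 18 genes of the polarity complexes, which set the apical and basal sides of the cell, 0 passed (5 lower and 0 higher at an unadjusted p under 0.05, limma, where 9.37% of all genes were lower). The largest differences were those of Pard6g (-0.29, adjusted p = 0.189) and Mpp5 (-0.26, adjusted p = 0.0959), an apical scaffold known as PALS1. The list's median was -0.11, and 6 members were lower on all mutant arrays than on any WT array, as were 9.82% of all genes.

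The catenins and nectins, the inner and outer partners of cadherins, showed small differences on many arrays and no called gene. Of 16 members 0 passed, 9 were lower at an unadjusted p under 0.05 (0 higher, limma, with 9.37% of all genes lower), and in the arrays of 9 members every Mfrp rd6 value lay below every WT value, where all genes gave 9.82%. This count was 9 under all 3 other scalings too. The median was -0.16, the lowest of the 6 other junction lists, with Nectin2, a nectin, at -0.28 (adjusted p = 0.112) and Plekha7, a protein of the apical adherens belt, at -0.28 (adjusted p = 0.0971). The surface epithelium array means were lower on the same arrays (10.71 to 10.76 in Mfrp rd6, 10.91 to 10.98 in WT), and desmosome genes of that list had differences of like size, such as -0.23 for Dsp and -0.27 for Dsg3 (adjusted p = 0.118 and 0.0792). Their part in the catenin and nectin values was not tested.

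Of 18 other cadherins 1 rose and 1 fell, with a median of -0.05. There were 3 higher and 3 lower at an unadjusted p under 0.05 (limma), against 5.98% and 9.37% of all genes. Cdh19, known from Schwann cells and melanocytes, read 6.53, 6.53, 6.88 and 6.41 in WT and 7.43, 7.35 and 7.05 in Mfrp rd6, all mutant arrays above all WT arrays. It rose by 0.69 (SE 0.13, adjusted p = 0.0253), but passed in only 2 of the 7 fits without 1 array, those without WT replicate 3 or Mfrp rd6 replicate 3. Without any one of the other 5 arrays the change was 0.61 to 0.67, with adjusted p of 0.0658 to 0.0998. Of the 9 measured Schwann and perineurial markers 0 passed (3 lower and 0 higher at an unadjusted p under 0.05, limma, against 9.37% and 5.98% of all genes). The array means of these markers were 9.37 to 9.48 in WT and 9.27 to 9.33 in Mfrp rd6. Cdh10, a neuronal cadherin, at 5.78 ± 0.17 (SD, n = 4) in WT and 5.17 ± 0.099 (SD, n = 3) in Mfrp rd6, fell by 0.60 (adjusted p = 0.0143). That call ended at adjusted p = 0.0505 when Mfrp rd6 replicate 1 was left out (-0.63), and at 0.0554 when replicate 3 was (-0.55). Cdh9, another dim cadherin, differed by -0.66 (adjusted p = 0.118). None of Cldn17, Cgnl1, Cdh10 and Cdh19 passed with either marker mean, surface epithelium or skeletal muscle, as a covariate. The differences in these fits, in this order of the covariates, were -0.39 and -0.58 for Cldn17, -0.43 and -0.36 for Cgnl1, -0.49 and -0.87 for Cdh10, and -0.01 and 0.22 for Cdh19. Leaving out WT replicate 3 and Mfrp rd6 replicate 2 together also ended the calls of Cldn17 (-0.47, adjusted p = 0.0826), Cgnl1 (-0.42, adjusted p = 0.105) and Cdh10 (-0.59, adjusted p = 0.0917).

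Of 15 genes that mark the switch between epithelial and mesenchymal states 0 passed, 0 also at an unadjusted p under 0.05 (limma), and all lay between -0.16 and 0.20. The ends of this range were Esrp1, an epithelial splicing factor (-0.16, adjusted p = 0.409), and Ovol2, an epithelial transcription factor (0.20, adjusted p = 0.373).

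**Figure D5:**
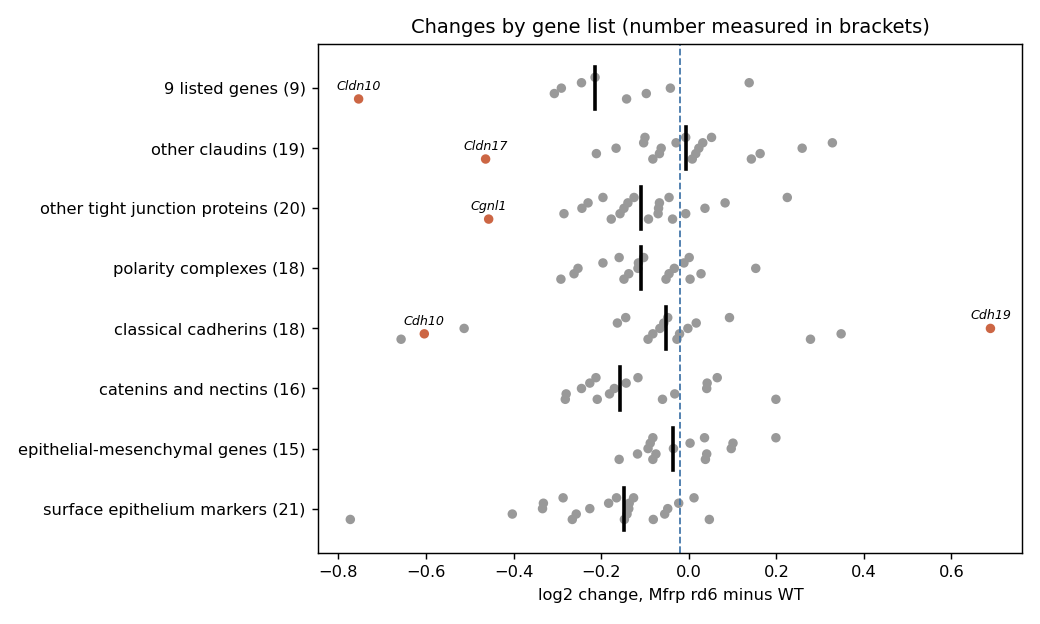
Log2 change of every measured gene, Mfrp rd6 minus WT, by list (points; orange and named where the limma adjusted p is under 0.05), with each list's median (black bar) and the median of all genes (dashed line). Cldn10, Cldn17, Cgnl1 and Cdh10 lie below 0 and Cdh19 above among the called genes, and the catenins and nectins have a median of -0.16.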

How the data were processed

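RNA of 7 RPE samples was hybridised to 1 Affymetrix whole-transcript array each, and samples were grouped by genotype. The authors deposited 1 table of log2 values per probe set, made with Affymetrix Expression Console and RMA per the submitters' processing notes; versions: not given in the sources used here. Changes of dim probe sets are compressed by RMA.

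Of 35556 probe sets, 21789 had exactly 1 symbol in the platform annotation, which can be old, and the one with the highest mean per gene left 19938 genes. All were fitted with limma (3.58.1, R 4.3.3) as Mfrp rd6 minus WT, with 5 residual degrees of freedom and Benjamini-Hochberg adjustment over all genes at 0.05. The fit was tested on simulated data. The 9 genes all had a mean of at least 6. The number of arrays limits the precision (median SE 0.09). Array medians lay between 6.52 and 6.58.

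The 9 genes and the other lists were chosen with earlier results of these data known. Named were the 9 genes, from each junction list the genes past the threshold and the 2 with the largest change, markers for the tissue check and the 3 genes most like the called gene; Zic1, Zic2, Nectin3, Dsp and Dsg3 were picked after their values were seen. Alternatives were other scalings, filters on dim genes, variance models, array weights, averaged probe sets, a replicate block, marker means as covariates and leaving out arrays. Figures were drawn in Python 3.11.15 (pandas 2.3.3, matplotlib 3.10.9). Promoter sequences are from RefSeq.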

Additional observations from a re-analysis of the deposited data

How the results depend on the processing

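Of the 9 genes 1 fell (Cldn10) under quantile normalization, centring on the median, cyclic loess and the mean of probe sets, 2 when genes with a mean under 6 were left out, with a variance trend and robust moderation or with array weights, 3 when genes below the median level were left out, and 0 with either covariate. Leaving out 1 array gave 1 to 2. In none of the 19 alternatives was one of the 9 called higher. Of all genes, 429 changed, against 718 with the variance trend, 679 with array weights, 40 and 0 with the skeletal muscle and surface epithelium covariates, 193 without WT replicate 3 and Mfrp rd6 replicate 2 together, and 211 to 325 without 1 array (211 and 244 when Mfrp rd6 replicates 1 and 2 were left out, and 266, 269 and 279 for WT replicates 2, 4 and 1).

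Signs turned for Cldn19 (0.31 with the muscle covariate, and -0.258 to 0.012 without 1 array, the highest when Mfrp rd6 replicate 2 was left out), Cldn1 (-0.085 to 0.025 without 1 array, the highest when Mfrp rd6 replicate 3 was left out), Cdh3 (-0.035 with the muscle covariate), and Cdh1 (0.265) and Cdh19 (-0.009) with the surface epithelium covariate. The cause was not tested. Each covariate itself separates the Mfrp rd6 arrays from WT, and the errors are wider in these fits (median SE 0.35 with surface epithelium and 0.16 with muscle, against 0.09).

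The labels do not say whether replicate numbers pair the samples. Deviations of same-numbered samples from their group means correlated by -0.30, -0.07 and 0.04, and 0 of 6 samples correlated best with its own number. These values showed no sign of pairing but cannot exclude it, because deviations within such small groups depend on each other. With the replicate number as a block 226 genes changed, Cldn10 among them (-0.75, adjusted p = 0.0106), but not Cldn17 (-0.51, adjusted p = 0.0599), Cgnl1 (-0.48, adjusted p = 0.0786) or Cdh19 (0.63, adjusted p = 0.112).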
